A study of Columba livia with 12 samples.

Results

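Breast muscle of White-King pigeon squabs was compared between the ages of 14 days (14D) and 1 day (1D), with 3 libraries at each age. The 6 libraries were taken from the 12 of the series by their age labels and by the names of their columns in the deposited tables. The series followed the muscle of this meat breed from hatching to adulthood by sequencing of total RNA, with further libraries at 28 days (28D) and 2 years. No bird was described as treated or genetically altered, and the labels do not say whether the libraries of an age came from separate birds. The p-values below set the difference between the ages against the spread between libraries, those of 28D included. That spread may be technical. Values were the authors' deposited TPM, the abundance of a transcript scaled by its length as a share of all transcripts, for mRNA genes and, in a separate table, for long noncoding RNAs (lncRNAs). The ages were compared over 73 gene families, chosen mostly outside the sarcomere, the cell cycle and energy metabolism. They were also compared over 11 lists of cell type markers and 31 pairs of genes related by sequence or role.

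A pigeon hatches helpless and is fed crop milk by its parents. During its first weeks in the nest the breast muscle, which later powers flight, grows mainly by enlargement of fibres that already exist. In vertebrate muscle, growth by fibre enlargement calls on ribosome production, protein folding and protein degradation together, and ubiquitin ligases choose which proteins are degraded through exchangeable adaptor subunits. Fast muscle also relies on creatine, carnosine and adenine nucleotides for short bursts of work. Patterning genes of the homeobox family keep a record of body position in connective tissue and muscle cells long after the embryo is formed.

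The mRNA tables summed to 835976 to 844829 TPM at 1D and to 737968 to 787201 TPM at 14D, and the lncRNA table took 14.98% to 15.9% and 20.6% to 25.5% of the summed TPM. At least 1 TPM was reached by 11549 to 11664 mRNA genes per library at 1D and 11194 to 11422 at 14D. The Spearman correlation over genes was 0.980 to 0.984 between 1D libraries, 0.965 to 0.977 between 14D libraries and 0.879 to 0.891 across the ages. Library depth is unknown, since TPM keeps no read counts. The tissue label was borne out by the skeletal muscle fibre markers, whose summed level was 41868 to 51486 TPM at 1D and 57632 to 66709 TPM at 14D, and 81 of the 128 markers listed for 11 cell types were in the mRNA table used here. In such bulk tissue fewer cells of a type and less RNA per cell cannot be told apart.

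Of 11951 mRNA genes tested with limma on log2(TPM + 1), 1623 (13.6%) were higher at 14D and 4688 (39.2%) were lower, at a Benjamini-Hochberg adjusted p below 0.05. The libraries of the ages did not overlap for 61.9% of tested genes. Over all tested genes the median log2 change was -0.31. After each library was rescaled by the median ratio of its genes, which moved that median to 0.01, 2925 genes (24.5%) were higher and 3101 (25.9%) lower. All 3101 of those lower genes had also been called lower without rescaling, and all 1623 higher genes stayed higher. The library factors were 1.144 to 1.25 at 1D and 0.8809 to 1.041 at 14D. Dividing by them moved the log2 changes upward. Rises could thus hardly be lost, and this step does not test them. Counts for each gene family are given as higher and lower calls with those after rescaling in brackets, to be read against these percentages. Fold changes are on the log2(TPM + 1) scale, which understates the change of low genes, with the standard error (SE) of the fit. Levels are means ± SD over 3 libraries. A gene is said to have risen or fallen only where it passed the test.

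**Figure D1:**
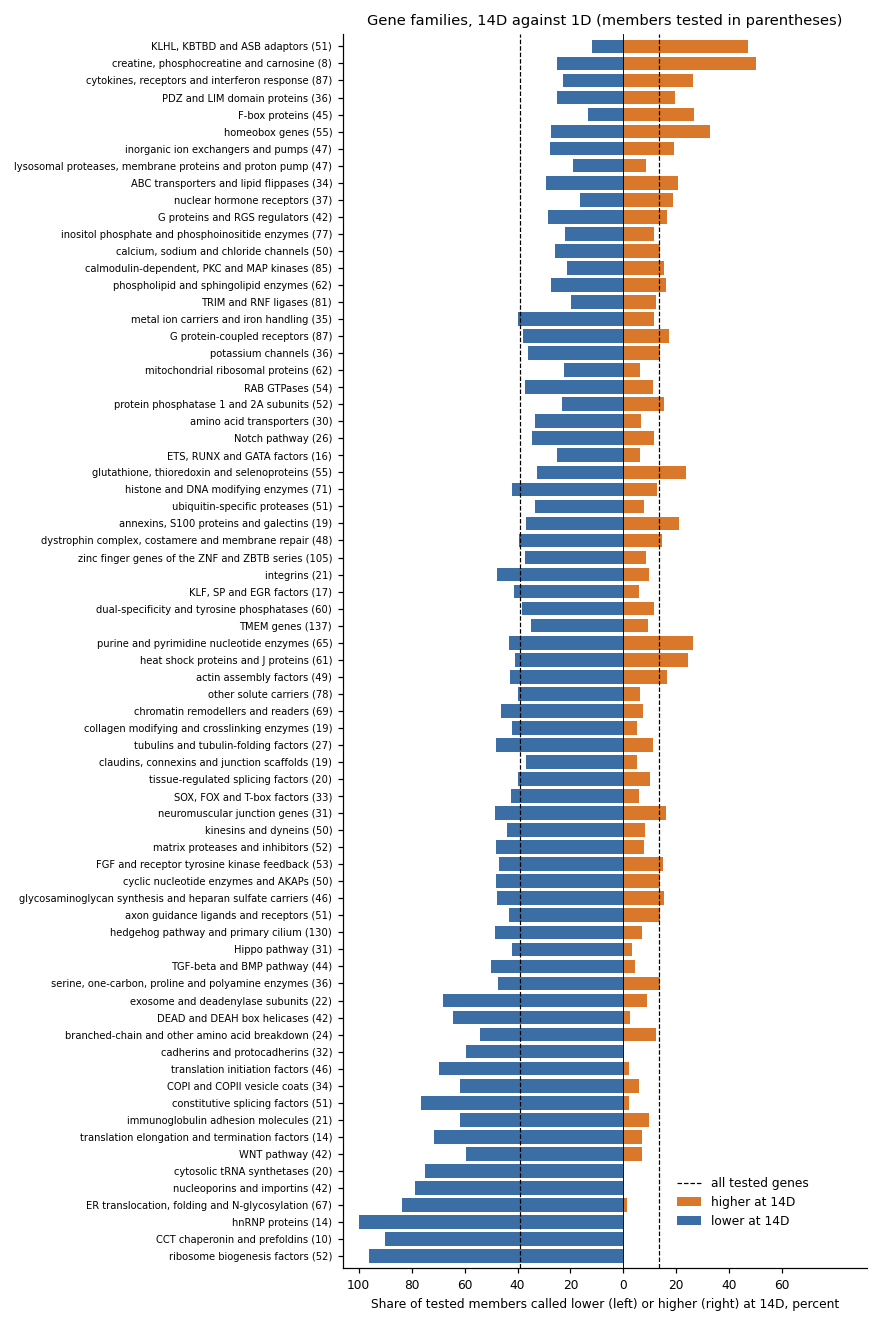
Share of the tested members of each of 72 of the 73 gene families that was called lower (bars to the left) or higher (bars to the right) at 14D, in percent, with the families in order of their median log2 change and the share of all tested genes as dashed lines (39.2% lower and 13.6% higher). Ribosome biogenesis factors, the CCT chaperonin and the hnRNP proteins lie at the bottom with 90% or more of members lower, and the adaptors of ubiquitin ligases and the creatine genes at the top with the longest bars to the right.

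Most lists of genes that make proteins in the cytosol had a larger share lower at 14D than the 39.2% of all tested genes. Mitochondrial ribosomal proteins, with 22.6% lower, did not. Ribosome biogenesis factors, the nucleolar proteins that build ribosomes, had 0 of 52 higher and 50 lower (1 and 49 after rescaling), with a median log2 change of -1.55. RRP9, which binds the U3 small nucleolar RNA, was measured at 56.99, 45.4 and 48.2 TPM at 1D and 5.46, 5.16 and 5.58 TPM at 14D (log2 fold change -2.99, SE 0.15, adjusted p = 6.27e-07). The 3 libraries of each age were far apart. DKC1, the pseudouridine synthase of small nucleolar RNPs, fell from 83.4 ± 8.58 to 13.6 ± 0.956 TPM, and NIP7, a late assembly factor of the large subunit, fell from 129.9 ± 25.8 to 23.4 ± 1.74 TPM. The cytosolic tRNA synthetases, which charge tRNAs with amino acids, had 0 of 20 higher and 15 lower (0 and 11 after rescaling), and RARS1, for arginine, fell by 1.49 on the log2 scale. Initiation factors had 1 of 46 higher and 32 lower (5 and 24 after rescaling). The most abundant gene named among them, EIF4EBP1, which binds and restrains the cap-binding factor eIF4E, was at 1483, 1954 and 1667 TPM at 1D and 408, 387 and 467 TPM at 14D (log2 fold change -2.01, SE 0.23, adjusted p = 5.89e-05). Its 14D libraries lay below all 1D libraries. EIF6, which keeps the large ribosomal subunit from joining the small one, fell from 49.6 ± 3.44 to 14.3 ± 0.524 TPM, while EIF2D, a factor for initiation without the usual tRNA carrier, was the sole member to rise (log2 change 0.64). Elongation and termination factors had 1 of 14 higher and 10 lower (1 and 7 after rescaling). Mitochondrial ribosomal proteins differed from these lists in counts, with 4 of 62 higher and 14 lower (16 and 4 after rescaling), and MRPS6 rose from 58.3 ± 9.68 to 142 ± 60.3 TPM. For the mitochondrial list the lower count was 8 leaving out 1D replicate 2 and 7 leaving out 14D replicate 3 or 1D replicate 3.

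RNA-handling proteins were mostly lower as well, except for the tissue-regulated splicing factors. Of those 40% were lower, near the 39.2% of all tested genes. All 14 hnRNP proteins, abundant binders of nuclear RNA, were lower (9 after rescaling), and HNRNPH3 fell from 431 ± 36.2 to 143 ± 19.96 TPM. Constitutive splicing factors had 1 of 51 higher and 39 lower (3 and 25 after rescaling); SNRPG, a core protein of the spliceosomal snRNPs, fell from 624 ± 119 to 165 ± 20.5 TPM, and SRSF4, an SR protein, rose from 2.88 ± 0.601 to 8.29 ± 1.74 TPM. Among the tissue-regulated splicing factors the counts were 2 of 20 higher and 8 lower (3 and 4 after rescaling), and CELF2, which sets developmental splicing in mammalian heart and muscle, fell from 52.2 ± 18.3 to 12.6 ± 3.69 TPM. For that list the higher count was 1 leaving out 14D replicate 2, 14D replicate 3 or 1D replicate 1 and 0 leaving out 1D replicate 2 or 1D replicate 3, and the lower count was 5 leaving out 14D replicate 3 or 1D replicate 3 and 4 leaving out 1D replicate 1. DEAD and DEAH box helicases had 1 of 42 higher and 27 lower (4 and 19 after rescaling), with DDX24, a nucleolar helicase, falling from 76.5 ± 15.2 to 12.1 ± 0.859 TPM and DDX17, a coregulator of muscle transcription in mouse cells, the sole riser (log2 fold change 1.23, SE 0.15, adjusted p = 8.61e-05). Exosome and deadenylase subunits, which degrade RNA, had 2 of 22 higher and 15 lower (2 and 10 after rescaling), led by EXOSC2 (log2 change -2.21), and the higher count was 1 leaving out 14D replicate 1, 14D replicate 2, 14D replicate 3, 1D replicate 2 or 1D replicate 3. Nucleoporins and importins had 0 of 42 higher and 33 lower (1 and 21 after rescaling), and KPNA2, an importin alpha carrier, fell from 82.7 ± 8.25 to 21.2 ± 6.56 TPM.

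Folding and secretion genes were mostly lower too, apart from the heat shock proteins, which are given further below and were split. Of the CCT chaperonin and prefoldin subunits, which fold actin and tubulin, 9 of 10 were lower (8 after rescaling) and none was higher, and TCP1 was at 333, 280.1 and 317 TPM at 1D and 85.4, 86.9 and 82.2 TPM at 14D (log2 fold change -1.85, SE 0.12, adjusted p = 4.07e-06). Its libraries did not overlap between the ages. In the list for translocation into the endoplasmic reticulum (ER), folding there and N-glycosylation the counts were 1 of 67 higher and 56 lower (4 and 40 after rescaling). SSR1, a translocon-associated protein, fell from 136 ± 1.98 to 35.4 ± 2.84 TPM, and ALG12, a mannosyltransferase of the N-glycan precursor, from 41.99 ± 3.25 to 8.29 ± 0.481 TPM. The sole riser of that list was SERPINH1 (HSP47), the ER chaperone of collagen, at 164, 108 and 99.5 TPM at 1D and 248, 258 and 222 TPM at 14D (log2 fold change 0.998, SE 0.18, adjusted p = 0.00125). It rose in all 3 libraries while collagen I genes were lower: the summed fibroblast markers, which include COL1A1 and COL1A2, were 6590 to 8368 TPM at 1D and 1852 to 2032 TPM at 14D. COPI and COPII coat genes, which move cargo between the ER and the Golgi apparatus, had 2 of 34 higher and 21 lower (4 and 15 after rescaling), and MIA3 (TANGO1), the receptor that loads collagen into COPII carriers, was among the risers (log2 fold change 0.91, SE 0.20, adjusted p = 0.0038).

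Adaptors of ubiquitin ligases stood at the other end of the families, and most that changed rose. The KLHL, KBTBD and ASB genes encode the exchangeable subunits that bring substrates to cullin 3 ligases (KLHL and KBTBD) or cullin 5 ligases (ASB), and had 24 of 51 higher and 6 lower (30 and 3 after rescaling). That is 47.1% higher against 13.6% of all tested genes, and the median log2 change was 0.34. ASB2, which targets filamins and muscle proteins in mammals, was measured at 3.94, 4.11 and 2.94 TPM at 1D and 109, 41.5 and 75.2 TPM at 14D (log2 fold change 3.94, SE 0.31, adjusted p = 8.18e-06). Each 14D library was many times above each 1D library. ASB11 was at 1.6, 4.38 and 0.784 TPM at 1D and 56.6, 29.3 and 43.997 TPM at 14D (log2 fold change 3.87, SE 0.37, adjusted p = 2.21e-05). Its ages did not overlap either. ASB14 rose from 4.38 ± 0.25 to 36.6 ± 4.66 TPM and ASB4 from 0.18 ± 0.12 to 7.25 ± 0.406 TPM. By subfamily, ASB genes had 10 of 16 higher and 2 lower (12 and 1 after rescaling), KLHL genes 10 of 29 higher and 4 lower (13 and 2 after rescaling) and KBTBD genes 4 of 6 higher and 0 lower (5 and 0 after rescaling). For the ASB genes the lower count was 1 leaving out 1D replicate 1. Among fallers, KLHL13, an adaptor active in cell division, went from 26.03 ± 2.99 to 11.3 ± 1.54 TPM and KLHL2, an adaptor for WNK kinases, from 22.9 ± 4.24 to 10.5 ± 2.32 TPM. KLHL40, which stabilises thin filament proteins in mouse, was lower as deposited (133 ± 20.99 and 70.3 ± 21.2 TPM) but not after rescaling (adjusted p = 0.0554).

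F-box proteins, the substrate receptors of cullin 1 ligases, had 12 of 45 higher and 6 lower (21 and 3 after rescaling). FBXO40, a muscle F-box protein that targets the insulin receptor substrate IRS1 in mouse, was at 1.01, 1.13 and 1.01 TPM at 1D and 33.2, 11.3 and 8.07 TPM at 14D (log2 fold change 2.93, SE 0.40, adjusted p = 0.000203). No 1D library came near the 14D range. FBXO25 rose from 7.4 ± 0.615 to 22.1 ± 4.85 TPM. FBXL2, an adaptor anchored in membranes, fell from 14.7 ± 1.75 to 2.07 ± 0.339 TPM, and FBXO5 (EMI1), the inhibitor of the anaphase-promoting complex, from 13.4 ± 0.837 to 3.08 ± 1.39 TPM. TRIM and RNF ligases had 10 of 81 higher and 16 lower (18 and 9 after rescaling), and TRIM55 (MURF2), a ligase of the sarcomere, rose from 34.97 ± 4.27 to 99.7 ± 8.79 TPM, whereas RNF217 fell from 19.97 ± 1.75 to 5.11 ± 0.527 TPM. Ubiquitin-specific proteases, which remove ubiquitin, had 4 of 51 higher and 17 lower (13 and 11 after rescaling). USP25, with a muscle isoform known in mammals, rose from 21.3 ± 1.53 to 60.2 ± 3.42 TPM, and UCHL1, a hydrolase abundant in neurons, fell from 12.5 ± 2.87 to 1.88 ± 0.587 TPM. For this list the higher count was 2 leaving out 1D replicate 1.

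**Figure D2:**
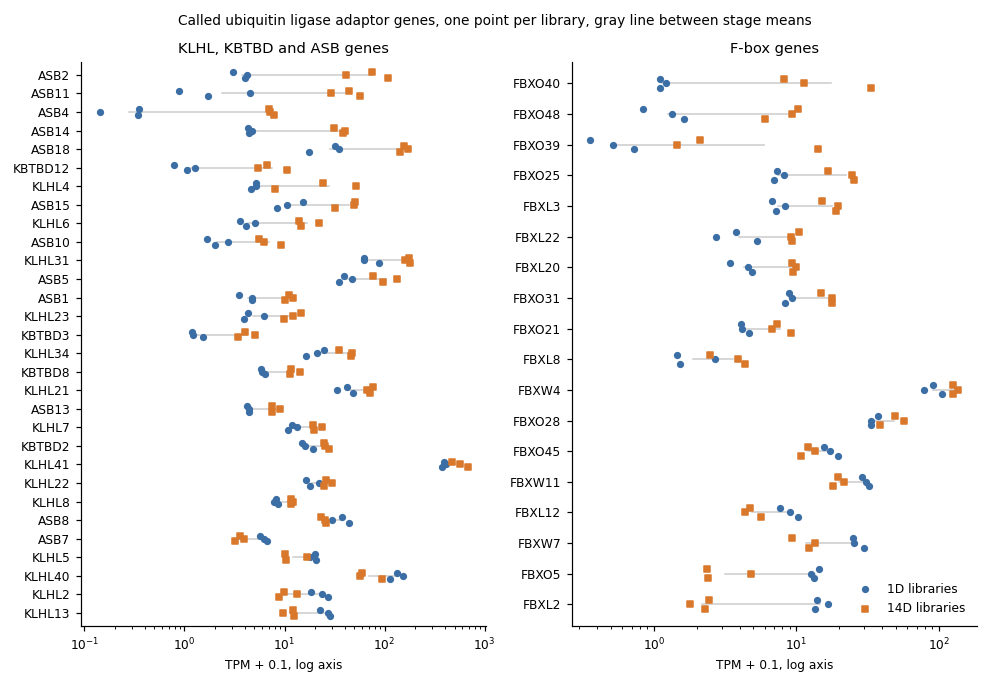
TPM + 0.1 on a log axis of every called KLHL, KBTBD and ASB gene (left) and every called F-box gene (right), ordered by log2 change, with 1 point per library and a gray line between the means of 1D (circles) and 14D (squares). The top rows (ASB2, ASB11, FBXO40) show 14D libraries far to the right of 1D libraries, and the lower rows are the adaptors that were lower at 14D.

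Heat shock proteins split by member, with 15 of 61 higher and 25 lower (21 and 18 after rescaling). HSP90AA1, the inducible cytosolic HSP90 that assists myosin folding in zebrafish muscle, was at 340.4, 319 and 336 TPM at 1D and 1159, 1179 and 1439 TPM at 14D (log2 fold change 1.91, SE 0.15, adjusted p = 8.12e-06). The 14D libraries all exceeded the 1D libraries. DNAJB1 rose from 4.49 ± 0.838 to 17.1 ± 7.81 TPM and DNAJA4 from 25.3 ± 2.09 to 74.6 ± 18.1 TPM, both J proteins that pass clients to HSP70. HSPB7, a small heat shock protein of heart and muscle, fell from 223 ± 47.3 to 47.5 ± 23.1 TPM, and DNAJC7 from 118 ± 5 to 32.3 ± 2.56 TPM. Lysosomal proteases, membrane proteins and proton pump subunits had 4 of 47 higher and 9 lower (14 and 7 after rescaling), and PSAP, the precursor of the saposins, rose from 255 ± 37.6 to 427 ± 56.5 TPM, while ATP6V1B1, a pump subunit known from kidney, fell from 9.39 ± 4.73 to 0.166 ± 0.288 TPM. For the lysosomal list the higher count was 2 leaving out 14D replicate 1 or 1D replicate 3. RAB GTPases, which direct vesicle traffic, had 6 of 54 higher and 20 lower (11 and 8 after rescaling), with RAB7B falling from 9.2 ± 2.04 to 1.71 ± 0.296 TPM and RAB5B, of early endosomes, rising from 46.9 ± 5.62 to 74.6 ± 10.6 TPM. For the RAB genes the lower count was 13 leaving out 1D replicate 1 or 1D replicate 2 and 12 leaving out 14D replicate 3.

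Among enzymes of nucleotide metabolism, the named genes of new synthesis fell and the named genes of adenylate turnover rose. The purine and pyrimidine enzymes had 17 of 65 higher and 28 lower (20 and 14 after rescaling). CTPS1, the CTP synthase, was at 188, 249 and 267 TPM at 1D and 19.6, 16.04 and 20.5 TPM at 14D (log2 fold change -3.57, SE 0.18, adjusted p = 6.42e-07). All of its 14D libraries lay far below the lowest 1D library. PPAT, the committed step of purine synthesis, fell from 13.3 ± 2.7 to 2.33 ± 0.752 TPM, DHODH, of pyrimidine synthesis, from 22.2 ± 1.52 to 4.18 ± 0.976 TPM, and UCK2, a uridine kinase, from 68.7 ± 12.4 to 13.4 ± 3.2 TPM. ADSS1, the muscle adenylosuccinate synthase, was at 24.8, 29.3 and 31.3 TPM at 1D and 223, 188 and 137 TPM at 14D (log2 fold change 2.62, SE 0.25, adjusted p = 2.15e-05). Every 14D library lay above every 1D library. AMPD1, the muscle AMP deaminase, rose from 45.7 ± 16.5 to 127 ± 54.02 TPM, and NT5C1A, which forms adenosine from AMP, from 23.5 ± 8.67 to 76.9 ± 26.8 TPM. XDH, the enzyme that makes uric acid, the main nitrogen waste of birds, was at 1.1, 0.944 and 1.53 TPM at 1D and 50.03, 32.5 and 15.6 TPM at 14D (log2 fold change 3.81, SE 0.35, adjusted p = 1.87e-05). It was close to 1 TPM in the 1D libraries and well above 10 TPM in each 14D library.

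Creatine and carnosine genes formed a short list of 8, of which 4 rose and 2 fell, the same counts as after rescaling. CKMT2, the mitochondrial creatine kinase of striated muscle, was at 97.2, 89.1 and 92.1 TPM at 1D and 1201, 1211 and 790.3 TPM at 14D (log2 fold change 3.48, SE 0.18, adjusted p = 7.46e-07). All 14D libraries exceeded all 1D libraries. GATM, which forms the creatine precursor guanidinoacetate, rose from 137 ± 105 to 357 ± 83.6 TPM. CARNS1, which joins beta-alanine to histidine to form carnosine, was at 6.39, 6.93 and 5.66 TPM at 1D and 32.4, 14.996 and 42.5 TPM at 14D (log2 fold change 1.97, SE 0.31, adjusted p = 0.000488). Its ages were separate as well. CNDP2, a cytosolic peptidase that can split such dipeptides, fell from 31.6 ± 3.07 to 12.7 ± 2.12 TPM, and CDO1, which starts cysteine oxidation to taurine, fell from 57.6 ± 2.39 to 19.5 ± 2.41 TPM. SLC6A8, the creatine transporter, was at 183 ± 10.8 and 249.97 ± 32.99 TPM and rose by little (log2 change 0.44, adjusted p = 0.0324), a call that did not hold in other fits (adjusted p 0.0514 with the 6 libraries alone and a replicate block, 0.0528 with a replicate block, 0.0847 leaving out 14D replicate 1, 0.105 leaving out 14D replicate 3, 0.0559 leaving out 1D replicate 1, 0.0683 leaving out 1D replicate 2 and 0.103 leaving out 1D replicate 3). Outside the list, GADL1, which forms beta-alanine in mouse muscle, was among the 40 largest rises of genes without overlap between the ages, from 2.72 ± 1.21 to 42.3 ± 15.5 TPM (log2 fold change 3.52, SE 0.50, adjusted p = 0.000239).

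**Figure D3:**
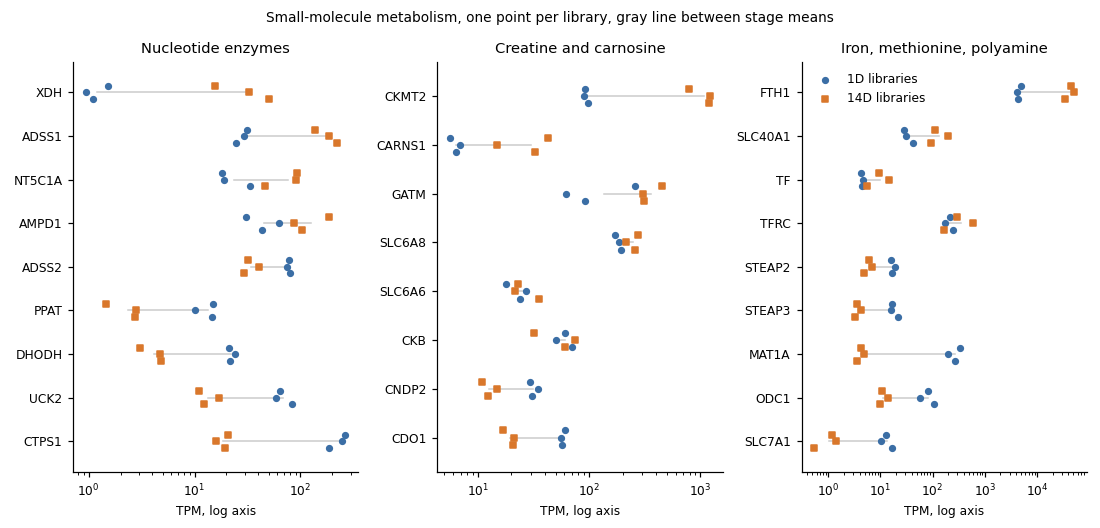
TPM on log axes of 9 nucleotide enzymes (left), the 8 genes of the creatine and carnosine list (middle) and 9 genes of iron, methionine and polyamine handling (right), with 1 point per library and a gray line between the means of 1D (circles) and 14D (squares). XDH, CKMT2 and FTH1 head their panels with 14D far to the right, and CTPS1, MAT1A and ODC1 lie far to the left at 14D.

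Iron handling held the most abundant mRNA of the 14D libraries. FTH1, the ferritin heavy chain that stores iron, was at 4309, 4070 and 4890 TPM at 1D and 34162, 50742 and 44098 TPM at 14D (log2 fold change 3.27, SE 0.26, adjusted p = 8.18e-06). Its lowest 14D library was several times its highest 1D library. SLC40A1 (ferroportin), the exporter of iron, was at 41.8, 31.5 and 28.9 TPM at 1D and 92.8, 200.1 and 112 TPM at 14D (log2 fold change 1.89, SE 0.28, adjusted p = 0.000342). The ages did not overlap. STEAP3 and STEAP2, ferric reductases of endosomes, fell from 18.1 ± 3.12 to 3.72 ± 0.582 TPM and 17.6 ± 1.66 to 5.99 ± 1.03 TPM, respectively. The whole list of metal carriers and iron genes had 4 of 35 higher and 14 lower (9 and 8 after rescaling), and zinc transporters were among the lower genes, with log2 changes of -1.24 for SLC30A9 and -1.30 for SLC30A7. The summed level of red blood cell markers was 327 to 573 TPM at 1D and 98.5 to 127 TPM at 14D, and the difference lay in 1 gene. This was HBAD, an alpha-type globin of birds. It headed the 40 largest falls, ranked among called genes with a symbol, at least 5 TPM and no overlap. Its level was 420.5, 267 and 247 TPM at 1D and 0, 0.901 and 1.3 TPM at 14D (log2 fold change -7.54, SE 0.32, adjusted p = 2.82e-07). Without HBAD the sums were 80.3 to 152 TPM at 1D and 98.5 to 126 TPM at 14D and overlapped. The part of red blood cells in the iron genes was not tested.

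Amino acid and methyl-group metabolism shifted in several directions. MAT1A, the methionine adenosyltransferase known from mammalian liver, was at 263, 197 and 340.4 TPM at 1D and 3.51, 4.79 and 4.29 TPM at 14D (log2 fold change -5.66, SE 0.22, adjusted p = 2.24e-07). It was among the 10 largest falls of called genes with a symbol and no overlap, and no 14D library came near the 1D range. ODC1, the entry enzyme of polyamine synthesis, was at 108, 57.1 and 81.5 TPM at 1D and 9.77, 13.8 and 10.9 TPM at 14D (log2 fold change -2.70, SE 0.24, adjusted p = 1.55e-05), and SRM, the spermidine synthase that follows it, fell from 27.2 ± 8.31 to 6.42 ± 1.42 TPM. Both enzymes thus fell in all 14D libraries. In serine synthesis PSAT1 fell from 21.1 ± 2 to 4.08 ± 0.716 TPM while PSPH, the last step, rose from 21.2 ± 1.69 to 42.1 ± 4.28 TPM. The serine, folate, proline and polyamine list as a whole had 5 of 36 higher and 17 lower (7 and 13 after rescaling). Of the enzymes that break down amino acids, 3 of 24 were higher and 13 lower (3 and 10 after rescaling). DMGDH and SARDH, which take methyl groups off dimethylglycine and sarcosine in mitochondria, fell from 68.2 ± 10.99 to 5.09 ± 1.42 TPM and 68.03 ± 28.7 to 16.8 ± 13.3 TPM, respectively, while PIPOX, a peroxisomal sarcosine oxidase, rose from 0.431 ± 0.383 to 6.03 ± 4.16 TPM. Amino acid transporters had 2 of 30 higher and 10 lower (5 and 8 after rescaling), and the 3 largest falls were of SLC7 carriers. SLC7A1, for cationic amino acids, fell from 13.2 ± 3.2 to 1.04 ± 0.44 TPM, and SLC7A3 fell from 9.44 ± 2.16 to 1.36 ± 0.21 TPM. In that list the higher count was 1 leaving out 14D replicate 1, 14D replicate 3, 1D replicate 1, 1D replicate 2 or 1D replicate 3.

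Glutathione, thioredoxin and selenoprotein genes moved in both directions, with 13 of 55 higher and 18 lower (19 and 13 after rescaling). GPX3, the secreted glutathione peroxidase, rose from 647 ± 6.71 to 1453 ± 235 TPM, and SELENOP, the selenium carrier of plasma, from 111 ± 45.6 to 272 ± 79.8 TPM. NQO2, a quinone reductase, was at 3.29, 3.75 and 2.71 TPM at 1D and 34.5, 29.6 and 16.5 TPM at 14D (log2 fold change 2.66, SE 0.25, adjusted p = 2.07e-05). All of its 14D libraries stood above its 1D libraries. GSTK1, a glutathione transferase of mitochondria and peroxisomes, rose from 6.77 ± 0.769 to 45.5 ± 14.7 TPM. GPX7 and SELENOK, both of the ER, fell from 20.4 ± 3.26 to 4.65 ± 0.937 TPM and 190.4 ± 48.3 to 54.1 ± 6.63 TPM, respectively.

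Lipid enzymes outside fuel storage had 10 of 62 higher and 17 lower (21 and 10 after rescaling) in the phospholipid and sphingolipid list and 9 of 77 higher and 17 lower (21 and 10 after rescaling) in the inositol and phosphoinositide list. LPIN1, which dephosphorylates phosphatidic acid and acts as a coactivator in mammalian muscle, was at 3.15, 4.95 and 5.35 TPM at 1D and 54.5, 29.4 and 17.9 TPM at 14D (log2 fold change 2.56, SE 0.33, adjusted p = 0.000138). The ages were clearly separate. PNPLA6, a lysophospholipase, rose from 5.19 ± 0.899 to 23.6 ± 4.07 TPM, and UGCG, the glucosylceramide synthase, fell from 59.8 ± 4.83 to 14.1 ± 2.43 TPM. PLCB2, a phospholipase C of blood cells, rose from 3.06 ± 0.697 to 11.99 ± 2.49 TPM.

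Homeobox genes had more rises than falls. Of 55 tested, 18 were higher and 15 lower (23 and 12 after rescaling), so 32.7% were higher against 13.6% of all tested genes. By cluster, HOXA genes had 5 of 10 higher and 0 lower (7 and 0 after rescaling), HOXB genes 5 of 8 higher and 0 lower (6 and 0 after rescaling) and HOXC genes 1 of 3 higher and 0 lower (1 and 0 after rescaling), while of the HOXD genes 2 of 3 were lower. For HOXA the higher count was 3 leaving out 1D replicate 1 or 1D replicate 3. HOXB2 was at 7.11, 4.13 and 5.78 TPM at 1D and 24.7, 24.6 and 22.9 TPM at 14D (log2 fold change 1.93, SE 0.17, adjusted p = 1.8e-05). HOXA5 was at 10.7, 10.8 and 9.1 TPM at 1D and 40.2, 40.7 and 33.4 TPM at 14D (log2 fold change 1.80, SE 0.18, adjusted p = 2.63e-05). In both, each 14D library exceeded each 1D library. HOXC6 rose from 4.89 ± 1.84 to 18.95 ± 5.86 TPM, and HOXD9 and HOXD8, named after their values were seen, fell by 1.06 and 1.02 on the log2 scale. Outside the HOX clusters the counts were 7 of 31 higher and 13 lower (9 and 10 after rescaling). SIX2, a partner of EYA proteins in muscle and kidney progenitors, was at 17.8, 18.8 and 12.8 TPM at 1D and 75.5, 61.5 and 86.1 TPM at 14D (log2 fold change 2.11, SE 0.21, adjusted p = 3.02e-05). Its groups did not overlap. BARX2, which is found in satellite cells of mouse muscle, was at 34.5, 23.9 and 30.8 TPM at 1D and 3.3, 2.92 and 3.11 TPM at 14D (log2 fold change -2.89, SE 0.36, adjusted p = 0.000114). The 14D libraries were all lower. SHOX2 and SHOX, factors of the growing limb skeleton, were lower, with SHOX2 going from 18.04 ± 1.39 to 3.6 ± 1.07 TPM and SHOX from 11.2 ± 0.68 to 2.1 ± 0.336 TPM.

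**Figure D4:**
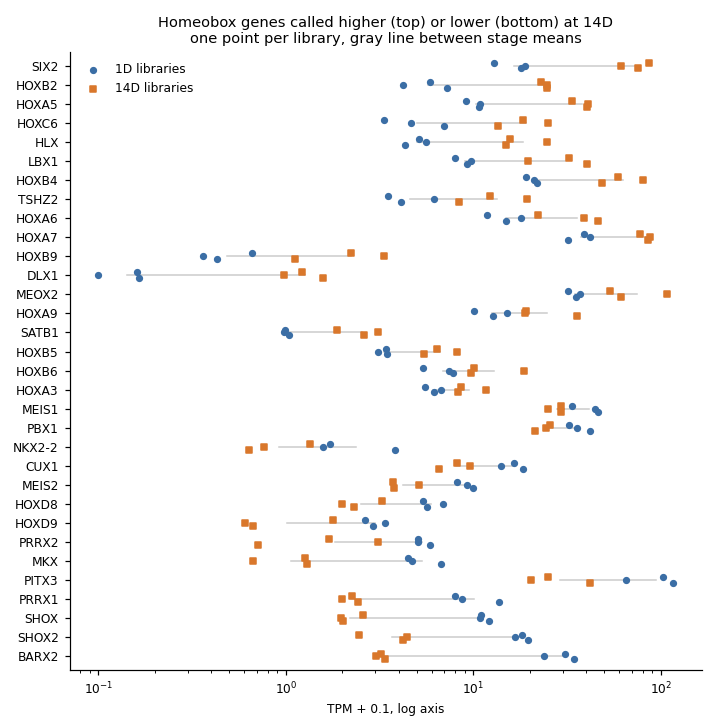
TPM + 0.1 on a log axis of 32 homeobox genes called at 14D against 1D, ordered from the largest rise (SIX2, top) to the largest fall (BARX2, bottom), with 1 point per library and a gray line between the means of 1D (circles) and 14D (squares). HOXA, HOXB and HOXC genes lie in the upper part with 14D to the right, and HOXD8, HOXD9, the PRRX and SHOX genes in the lower part with 14D to the left.

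Except for the nuclear hormone receptors, the other families of transcription factors had more lower than higher calls as deposited. So did all tested genes, with 39.2% lower and 13.6% higher. The share lower was 42.4% for SOX, FOX and T-box genes and 41.2% for KLF, SP and EGR genes. It was 25% for ETS, RUNX and GATA genes and 37.1% for the zinc finger genes, so these families were near or below all genes. SOX, FOX and T-box genes had 2 of 33 higher and 14 lower (3 and 8 after rescaling); FOXO6 fell from 19.1 ± 1.66 to 2.21 ± 0.379 TPM and FOXO4, an atrophy-linked factor of the same subfamily in mammals, rose from 8.16 ± 0.793 to 17.6 ± 1.38 TPM. For that list the higher count was 1 leaving out 14D replicate 3, 1D replicate 2 or 1D replicate 3, and the lower count was 9 leaving out 1D replicate 1 and 8 leaving out 14D replicate 3. KLF, SP and EGR genes had 1 of 17 higher and 7 lower (3 and 3 after rescaling), and KLF5, which takes part in myoblast differentiation in mouse, fell from 27.2 ± 3.21 to 5.74 ± 1.07 TPM. For these the higher count was 0 leaving out 1D replicate 2, and the lower count was 4 leaving out 14D replicate 3 or 1D replicate 2. ETS, RUNX and GATA genes had 1 of 16 higher and 4 lower (5 and 3 after rescaling), and ETS2 fell from 104 ± 43.3 to 28.02 ± 6.15 TPM, while in this list the lower count was 7 leaving out 14D replicate 2. Nuclear hormone receptors had 7 of 37 higher and 6 lower (10 and 3 after rescaling). NR4A3, an orphan receptor induced by exercise in mammals, rose from 4.44 ± 1.3 to 17.2 ± 6.06 TPM, ESRRG, an oestrogen-related receptor, fell from 49.1 ± 14.8 to 18.7 ± 4.74 TPM, and NR2F1 (COUP-TFI) fell from 12.4 ± 0.972 to 4.36 ± 1.67 TPM. For the receptors the higher count was 4 leaving out 14D replicate 1. Zinc finger genes of the ZNF and ZBTB series had 9 of 105 higher and 39 lower (27 and 23 after rescaling), with ZNF366 rising from 8.19 ± 2.04 to 32.6 ± 3.04 TPM and ZNF385C falling from 15.6 ± 5.1 to 1.37 ± 0.548 TPM, and the higher count was 5 leaving out 1D replicate 3.

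Chromatin genes had 9 of 71 higher and 30 lower (21 and 18 after rescaling) among the histone and DNA modifying enzymes and 5 of 69 higher and 32 lower (12 and 19 after rescaling) among the remodellers and readers. HDAC5, a class IIa deacetylase that restrains MEF2, was at 13.9, 20.7 and 16.6 TPM at 1D and 59.9, 34.3 and 38.997 TPM at 14D (log2 fold change 1.31, SE 0.22, adjusted p = 0.000781). The ages did not overlap. SETD3, the histidine methyltransferase of actin, fell from 84.9 ± 6.37 to 35.004 ± 5.69 TPM, and PRMT3, which methylates a ribosomal protein, from 51.6 ± 5.35 to 13.1 ± 1.62 TPM. HMGB2, a DNA-bending protein of dividing cells, was at 388, 398 and 489 TPM at 1D and 43.6, 55.2 and 39.9 TPM at 14D (log2 fold change -3.18, SE 0.18, adjusted p = 1.36e-06). It was lower in every 14D library. CBX5 (HP1 alpha), a reader of closed chromatin, fell from 301 ± 22.5 to 78.5 ± 9.67 TPM. For the remodellers the higher count was 3 leaving out 14D replicate 1, 2 leaving out 14D replicate 2 or 1D replicate 1, 1 leaving out 1D replicate 2 and 0 leaving out 1D replicate 3.

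Genes of WNT signalling had 3 of 42 higher and 25 lower (4 and 20 after rescaling), or 59.5% lower against 39.2% of all tested genes. WIF1, a secreted inhibitor that binds WNT ligands, was at 34.6, 32.2 and 25.5 TPM at 1D and 1.73, 1.23 and 2.3 TPM at 14D (log2 fold change -3.54, SE 0.26, adjusted p = 6.33e-06). WNT4, a ligand, fell from 12.7 ± 3.78 to 1.21 ± 0.739 TPM, RSPO4, a ligand that amplifies WNT signalling, from 11.2 ± 2.56 to 0.471 ± 0.0921 TPM, and SFRP1, a secreted antagonist, from 12.7 ± 2.76 to 2 ± 0.854 TPM. FRZB (SFRP3), another secreted antagonist, rose from 22.9 ± 1.96 to 36.7 ± 11.6 TPM, a call lost in other fits (adjusted p 0.0823 leaving out 14D replicate 2, 0.0684 leaving out 14D replicate 3, 0.0768 leaving out 1D replicate 1 and 0.0783 leaving out 1D replicate 2). The 14D libraries of WIF1 were all below its 1D libraries. For the WNT list the higher count was 1 leaving out 14D replicate 2, 14D replicate 3, 1D replicate 1 or 1D replicate 2. The TGF-beta and BMP genes had 2 of 44 higher and 22 lower (7 and 16 after rescaling), or 50% lower, which is nearer to all genes. BMP7 fell from 8.43 ± 0.962 to 1.04 ± 0.455 TPM, TGFB3 from 98.4 ± 37.9 to 21.5 ± 4.79 TPM, the receptor BMPR1B from 10.1 ± 1.49 to 2.89 ± 0.892 TPM and the signal transducer SMAD9 from 8.77 ± 1.33 to 1.47 ± 0.511 TPM. For these the higher count was 1 leaving out 14D replicate 1, 14D replicate 2 or 1D replicate 2 and 0 leaving out 1D replicate 3. The list for FGF and receptor tyrosine kinase signalling, which holds growth factors and receptors, had 8 of 53 higher and 25 lower (11 and 19 after rescaling). Its share lower was 47.2%, also nearer to all genes. MDK (midkine), a heparin-binding factor of fetal tissue, fell from 67.9 ± 13.2 to 11.4 ± 4.54 TPM, and FGF2 fell from 10.97 ± 1.72 to 1.43 ± 0.528 TPM. KITLG and its receptor KIT both rose, the ligand from 8.4 ± 1.75 to 37.5 ± 10.6 TPM (log2 fold change 2.01, SE 0.39, adjusted p = 0.00167) and the receptor from 5.21 ± 0.633 to 15.7 ± 8.99 TPM (log2 fold change 1.30, SE 0.34, adjusted p = 0.00874). For the list the higher count was 5 leaving out 14D replicate 2, 14D replicate 3 or 1D replicate 2 and 3 leaving out 1D replicate 3.

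Notch genes had 3 of 26 higher and 9 lower (9 and 8 after rescaling). The ligand JAG2 fell from 64.7 ± 9.04 to 23.8 ± 2.21 TPM, the transcription factor RBPJ from 35.7 ± 2.17 to 14.97 ± 3.51 TPM and its target HES1 from 29.7 ± 10.96 to 11.4 ± 1.36 TPM, while HES4 rose from 18.8 ± 7.53 to 37.95 ± 7.73 TPM. The list for hedgehog signalling and the primary cilium had 9 of 130 higher and 63 lower (24 and 42 after rescaling). It was drawn by patterns in gene symbols and took in genes of the CEP, WDR and TTC naming series, also among its largest falls. The role of each member in cilia was not checked, so the counts are not those of a pathway. IFT80, of the transport train in cilia, rose from 14.8 ± 0.664 to 38.9 ± 13.5 TPM, and CEP350, of centrosomes, fell from 72.4 ± 18.5 to 17.2 ± 2.49 TPM. Hippo pathway genes had 1 of 31 higher and 13 lower (2 and 8 after rescaling), and the coactivator YAP1 fell from 33.5 ± 3.79 to 17.98 ± 1.8 TPM while the lower count was 8 leaving out 1D replicate 1. Axon guidance genes had 7 of 51 higher and 22 lower (13 and 15 after rescaling). SEMA6C, a transmembrane semaphorin, was at 4.27, 4.06 and 5.17 TPM at 1D and 29.3, 38.6 and 36.3 TPM at 14D (log2 fold change 2.70, SE 0.18, adjusted p = 3.57e-06). ROBO1, a receptor of SLIT proteins, was at 7.7, 12.3 and 8.25 TPM at 1D and 0.907, 1.25 and 0.414 TPM at 14D (log2 fold change -2.49, SE 0.23, adjusted p = 2.18e-05). For each the ages did not overlap. SEMA3B, a secreted semaphorin, fell from 10.4 ± 1.06 to 1.49 ± 0.366 TPM, and EPHB2, a receptor of ephrins, from 12.1 ± 1.96 to 2.09 ± 0.299 TPM.

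Receptors and second messengers were mixed. G protein-coupled receptors had 15 of 87 higher and 33 lower (23 and 23 after rescaling). GPR20, an orphan receptor, was at 31.2, 13.8 and 40.5 TPM at 1D and 0.411, 1.61 and 1.91 TPM at 14D (log2 fold change -3.62, SE 0.38, adjusted p = 4.23e-05), without overlap. ADORA1, an adenosine receptor, rose from 2.41 ± 1.01 to 9.66 ± 2.95 TPM. ADGRL4 and ADGRF5, adhesion receptors of endothelial cells, rose from 39.8 ± 6.7 to 116 ± 41.05 TPM and 7.15 ± 0.91 to 21.1 ± 10.9 TPM, respectively. For the receptor list the higher count was 9 leaving out 1D replicate 3. G proteins and RGS regulators had 7 of 42 higher and 12 lower (14 and 5 after rescaling), and the higher count was 4 leaving out 1D replicate 1, and the lower count was 7 leaving out 1D replicate 1 or 1D replicate 2. Cyclic nucleotide enzymes and their anchors had 7 of 50 higher and 24 lower (14 and 12 after rescaling), with PDE2A, a phosphodiesterase, falling from 72.1 ± 3.35 to 17.8 ± 3.78 TPM and PRKG1, the cGMP-dependent kinase, from 50.4 ± 18.1 to 19.2 ± 8.17 TPM. Phosphatase 1 and 2A subunits had 8 of 52 higher and 12 lower (14 and 7 after rescaling); PPP1R3A, which tethers the phosphatase to glycogen in muscle, rose from 22.6 ± 4.07 to 105 ± 9.87 TPM, and PPP1R1B (DARPP-32), an inhibitor known from brain, from 0.72 ± 0.462 to 11.8 ± 6.04 TPM. For the subunits the higher count was 5 leaving out 14D replicate 2, 14D replicate 3, 1D replicate 2 or 1D replicate 3. The tyrosine phosphatases had 7 of 60 higher and 23 lower (15 and 15 after rescaling), with PTPN11 (SHP2), a positive regulator of growth factor signals, falling from 36.3 ± 2.57 to 14.5 ± 1.81 TPM and PTPRB, of endothelium, rising from 14.7 ± 2.63 to 47.1 ± 14.6 TPM. Calmodulin-dependent, PKC and MAP kinases had 13 of 85 higher and 18 lower (30 and 14 after rescaling), and MKNK2, which phosphorylates eIF4E, was at 35.2, 32.9 and 26.6 TPM at 1D and 109, 69.4 and 77.5 TPM at 14D (log2 fold change 1.39, SE 0.18, adjusted p = 0.00014). Its 14D libraries were all higher. For the kinases the higher count was 8 leaving out 14D replicate 1, 7 leaving out 14D replicate 2 or 1D replicate 1 and 3 leaving out 1D replicate 3.

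Cytokine, chemokine and interferon genes that changed rose and fell in like numbers as deposited, with 23 of 87 higher and 20 lower (33 and 13 after rescaling), or 26.4% higher against 13.6% of all tested genes. TNFSF10 (TRAIL), a death ligand, was at 9.46, 13.4 and 9 TPM at 1D and 24.7, 42.4 and 41.3 TPM at 14D (log2 fold change 1.66, SE 0.23, adjusted p = 0.000234). TNFSF11 (RANKL), which drives osteoclast formation, was at 2.78, 2.08 and 1.9 TPM at 1D and 5.15, 16.9 and 9.01 TPM at 14D (log2 fold change 1.68, SE 0.35, adjusted p = 0.00273). Neither gene overlapped between the ages. IRF8, a factor of macrophages and B cells, rose from 2.18 ± 1.86 to 8.65 ± 2 TPM, and IL13RA1, a receptor chain for interleukins, from 2.4 ± 1.1 to 8.79 ± 0.363 TPM. CXCL14, a chemokine of epithelia and muscle, was at 46.4, 33.5 and 31.7 TPM at 1D and 0.0912, 0.361 and 0.0863 TPM at 14D (log2 fold change -5.01, SE 0.20, adjusted p = 2.24e-07). All 14D libraries lay below 1 TPM. TNFRSF9, a receptor of activated lymphocytes, fell from 47.3 ± 7.3 to 7.58 ± 1.01 TPM. Outside the list, CD74, the invariant chain of MHC class II, was among the 40 largest rises of genes without overlap between the ages. It was at 28.3, 58.6 and 16.4 TPM at 1D and 352, 602 and 435 TPM at 14D (log2 fold change 3.86, SE 0.40, adjusted p = 3.52e-05). The separation of its libraries was set by that choice.

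Marker lists of macrophages, lymphocytes and endothelial cells had many higher members alongside. Of the macrophage markers tested, 3 of 4 were higher (3 after rescaling), and of lymphocyte markers 4 of 7 (5 after rescaling). Of endothelial markers 7 of 10 were higher (8 after rescaling). Of all tested genes 13.6% were higher as deposited. None of the 3 lists had a lower member. Only 4 of 10 listed macrophage markers, 7 of 12 lymphocyte markers and 10 of 12 endothelial markers were in the table. The summed macrophage level was 17.8 to 27.8 TPM at 1D and 34.2 to 65.2 TPM at 14D, the lymphocyte level 12.5 to 28.7 and 28.0 to 45.5 TPM, and the endothelial level 481 to 575 and 610 to 1249 TPM. In all 3 lists the highest sum was that of 14D replicate 2. The lymphocyte sums overlapped between the ages, and so did the macrophage sums without CSF1R (8.5 to 17.1 and 14.4 to 30.7 TPM) and the endothelial sums without PECAM1 (368 to 460 and 403 to 932 TPM). CSF1R, the receptor of the macrophage growth factor, was at 10.2, 10.7 and 9.34 TPM at 1D and 19.8, 34.5 and 27.9 TPM at 14D (log2 fold change 1.32, SE 0.20, adjusted p = 0.000376). PECAM1, an adhesion molecule of endothelium, was at 113, 116 and 113 TPM at 1D and 207, 317 and 194 TPM at 14D (log2 fold change 1.03, SE 0.21, adjusted p = 0.00193). Both genes kept 14D above 1D in every library. Fibroblast markers were lower in 8 of 10 (7 after rescaling) and nerve and Schwann cell markers in 6 of 8 (5 after rescaling). Of all tested genes 39.2% were lower as deposited. The summed nerve and Schwann cell level was 376 to 521 TPM at 1D and 150 to 197 TPM at 14D. Smooth muscle and pericyte markers had 3 of 9 higher and 2 lower (3 and 0 after rescaling), tendon and cartilage markers 1 of 5 higher and 3 lower (1 and 3 after rescaling), adipocyte markers 1 of 5 higher and 0 lower (1 and 0 after rescaling), red blood cell markers 0 of 6 higher and 1 lower (1 and 1 after rescaling), fibre markers 4 of 13 higher and 2 lower (10 and 1 after rescaling) and heart markers, of which 2 were tested, 2 lower (1 after rescaling). For smooth muscle the lower count was 1 leaving out 14D replicate 1, 14D replicate 3, 1D replicate 1, 1D replicate 2 or 1D replicate 3. For adipocytes the higher count was 2 leaving out 1D replicate 1, for red blood cells the higher count was 3 leaving out 1D replicate 1, for nerve and Schwann cells the higher count was 1 leaving out 14D replicate 2 and for heart the lower count was 1 leaving out 14D replicate 1, 14D replicate 3, 1D replicate 1, 1D replicate 2 or 1D replicate 3. The heart sum, 67.8 to 89.8 TPM at 1D and 7.23 to 14.5 TPM at 14D, lay almost wholly in TNNT2. Without TNNT2 it was 2.55 to 2.96 TPM at 1D and 1.32 to 2.04 TPM at 14D. Of 9 heart markers listed, 3 were in the table. The part of these cell types in the changes of the gene families was not tested.

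**Figure D5:**
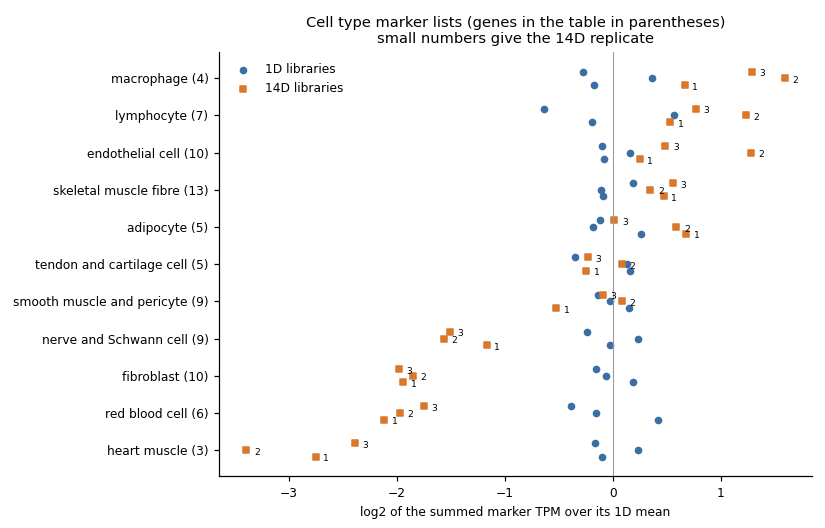
Summed TPM of each marker list in each library, as the log2 ratio to the list's mean at 1D, with 1D libraries as circles and 14D libraries as numbered squares. Macrophage, lymphocyte and endothelial sums lie highest in 14D replicate 2. The heart, fibroblast, red blood cell and nerve sums lie below their 1D libraries in all 3 14D libraries. For red blood cells this is through HBAD alone, and for heart it is mostly through TNNT2.

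Cadherins and immunoglobulin adhesion molecules that changed were mostly lower, while junction and integrin genes were nearer to all tested genes, of which 39.2% were lower. Of cadherins and protocadherins 19 of 32 were lower and none was higher (16 and 3 after rescaling). CDH2 (N-cadherin), which joins myoblasts, was at 12.8, 10.97 and 10.8 TPM at 1D and 0.962, 1.27 and 1.86 TPM at 14D (log2 fold change -2.42, SE 0.20, adjusted p = 1.06e-05). CDH11, of mesenchymal cells, fell from 45.8 ± 5.19 to 9.9 ± 4.53 TPM, and for the list the higher count was 1 leaving out 14D replicate 1. Claudins, connexins and junction scaffolds had 1 of 19 higher and 7 lower (4 and 4 after rescaling). CLDN14, a tight junction protein, was at 24.5, 63.9 and 37.9 TPM at 1D and 5.84, 0.438 and 0 TPM at 14D (log2 fold change -4.23, SE 0.60, adjusted p = 0.000243). Neither CDH2 nor CLDN14 overlapped between the ages. For the claudin and connexin list the higher count was 2 leaving out 14D replicate 1. Immunoglobulin adhesion molecules had 2 of 21 higher and 13 lower (5 and 9 after rescaling), with NCAM1, which marks young fibres, falling from 28.8 ± 2.2 to 10.3 ± 1.78 TPM and the higher count was 1 leaving out 14D replicate 1, 14D replicate 2, 14D replicate 3, 1D replicate 2 or 1D replicate 3. Of the integrin chains 2 of 17 were higher and 6 lower (5 and 3 after rescaling), and with binding partners the list had 2 of 21 higher and 10 lower (5 and 5 after rescaling), where the lower count was 6 leaving out 14D replicate 3 or 1D replicate 2. ITGA1, a collagen-binding chain, rose from 21.2 ± 3.1 to 66.7 ± 34.1 TPM, and ITGA6, a laminin-binding chain, fell from 126 ± 21.4 to 60.8 ± 8.33 TPM.

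Genes of the neuromuscular junction were mostly lower, with 1 of 17 higher and 12 lower (2 and 9 after rescaling) once the tetraspanins are set aside, which had 4 of 14 higher and 3 lower (5 and 3 after rescaling). With the tetraspanins 48.4% were lower, against 39.2% of all tested genes. ERBB3, a neuregulin receptor of Schwann cells and muscle, was at 7.15, 14.5 and 8.74 TPM at 1D and 0.323, 0.218 and 0.301 TPM at 14D (log2 fold change -3.07, SE 0.23, adjusted p = 6.74e-06). AGRN (agrin), which gathers acetylcholine receptors under the nerve ending, was at 46.1, 36.8 and 36.2 TPM at 1D and 7.99, 16.1 and 11.2 TPM at 14D (log2 fold change -1.72, SE 0.22, adjusted p = 0.000129). The 14D libraries of both lay below all 1D libraries. For the junction list without tetraspanins the higher count was 0 leaving out 14D replicate 2 or 1D replicate 2, and for the tetraspanins the higher count was 2 leaving out 14D replicate 2, 14D replicate 3, 1D replicate 1, 1D replicate 2 or 1D replicate 3. The dystrophin complex, costamere and membrane repair list had 7 of 48 higher and 19 lower (14 and 12 after rescaling). CAV3, the caveolin of muscle membranes, was at 381, 571 and 401 TPM at 1D and 97.98, 139 and 119 TPM at 14D (log2 fold change -1.91, SE 0.19, adjusted p = 2.7e-05). SGCB, a sarcoglycan, fell from 148 ± 14.4 to 64.6 ± 4.36 TPM, and FERMT2 (kindlin 2), an integrin activator, from 199 ± 12.7 to 94.3 ± 28.02 TPM. NRAP, which organises new myofibrils at their ends, rose from 163 ± 36.9 to 315 ± 79.6 TPM, and ANK1, whose short form ties the sarcoplasmic reticulum to the sarcomere, from 12.1 ± 2.45 to 27.2 ± 7.06 TPM. CAV3 had no overlap. For this list the higher count was 4 leaving out 1D replicate 3.

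Matrix processing genes had 4 of 52 higher and 25 lower (9 and 15 after rescaling) for proteases and inhibitors, 1 of 19 higher and 8 lower (2 and 7 after rescaling) for collagen modifying enzymes and 7 of 46 higher and 22 lower (11 and 18 after rescaling) for glycosaminoglycan synthesis. SERPINH1, already counted in the ER list, was the 1 higher collagen modifying gene and 1 of the 4 higher proteases and inhibitors. ADAMTS1, a protease that cuts proteoglycans, was at 28.2, 63.2 and 63.3 TPM at 1D and 7.37, 4.77 and 3.92 TPM at 14D (log2 fold change -2.996, SE 0.40, adjusted p = 0.000173). TIMP3, a protease inhibitor bound to matrix, was at 167, 167 and 173 TPM at 1D and 30.8, 46.4 and 28.8 TPM at 14D (log2 fold change -2.26, SE 0.18, adjusted p = 8.18e-06). Both were lower in every 14D library. P4HA3, a collagen prolyl hydroxylase, fell from 20.9 ± 2.97 to 3.46 ± 0.87 TPM, and PPIB, a prolyl isomerase of the ER, from 1223 ± 64.2 to 474 ± 85.1 TPM. EXTL1, a heparan sulfate polymerase, rose from 7.49 ± 1.98 to 26.99 ± 5.47 TPM, SDC3, a heparan sulfate carrier of satellite cells in mouse, from 15.3 ± 2.6 to 41.4 ± 15.5 TPM, and XYLT1, which starts the chains, fell from 36.6 ± 2.24 to 12.2 ± 2.58 TPM. For the collagen enzymes the higher count was 2 leaving out 1D replicate 1, and for glycosaminoglycans the higher count was 4 leaving out 14D replicate 1 or 1D replicate 2 and 3 leaving out 14D replicate 3 or 1D replicate 3.

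Ion channel families held genes that rose and genes that fell. Potassium channels had 5 of 36 higher and 13 lower (9 and 10 after rescaling). KCNIP1, a subunit that modulates Kv4 channels, was at 60.8, 26.9 and 70.2 TPM at 1D and 2.26, 4.42 and 2.95 TPM at 14D (log2 fold change -3.59, SE 0.36, adjusted p = 3.17e-05), and KCND2 (Kv4.2), one of the channels it binds, fell from 13.4 ± 3.01 to 1.38 ± 0.436 TPM. KCNJ2 (Kir2.1), an inward rectifier, rose from 20.9 ± 3.36 to 48.99 ± 13.4 TPM. Calcium, sodium and chloride channels had 7 of 50 higher and 13 lower (14 and 7 after rescaling). CLCN1, the chloride channel that steadies the resting fibre, rose from 20.8 ± 5.28 to 40.2 ± 8.28 TPM. CLIC5, an intracellular chloride channel protein, was at 0.478, 0.264 and 0.235 TPM at 1D and 19.3, 20.5 and 12.9 TPM at 14D (log2 fold change 3.79, SE 0.33, adjusted p = 1.47e-05). It and KCNIP1 had no overlap between the ages. For this list the higher count was 4 leaving out 1D replicate 3.

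Pumps and carriers followed. Exchangers and pumps of inorganic ions had 9 of 47 higher and 13 lower (16 and 5 after rescaling). AQP4, a water channel of fast fibres in mammals, was at 11.4, 2.7 and 10.2 TPM at 1D and 15.4, 60.05 and 108 TPM at 14D (log2 fold change 2.57, SE 0.63, adjusted p = 0.00629). Every 14D library was above every 1D library. Other solute carriers had 5 of 78 higher and 31 lower (9 and 23 after rescaling). SLC2A12, a glucose transporter, was at 1.05, 1.05 and 2.56 TPM at 1D and 20.7, 16.9 and 11.5 TPM at 14D (log2 fold change 2.78, SE 0.27, adjusted p = 2.63e-05), without overlap. Monocarboxylate carriers were split, with SLC16A3 (MCT4), which exports lactate, rising from 24.4 ± 3.89 to 57.1 ± 9.05 TPM, SLC16A1 rising from 53.8 ± 6.12 to 96.9 ± 9.26 TPM, SLC16A6 falling from 31.6 ± 6.13 to 3.78 ± 1.48 TPM and SLC16A7 from 24.1 ± 2.96 to 4.66 ± 2.17 TPM. SLC19A1, the folate carrier, fell from 25.98 ± 4.48 to 6.06 ± 0.353 TPM. ABC transporters and flippases had 7 of 34 higher and 10 lower (12 and 4 after rescaling), and ABCC8, the sulfonylurea receptor that forms potassium channels gated by ATP, rose from 42.9 ± 0.62 to 78.6 ± 10.5 TPM, while ABCE1, a ribosome recycling factor, fell from 187 ± 2.95 to 79.9 ± 6.54 TPM.

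Cytoskeletal families also held both risers and fallers. Tubulins and their folding factors had 3 of 27 higher and 13 lower (5 and 11 after rescaling), with STMN1, which takes microtubules apart, falling from 669 ± 39.5 to 158 ± 20.6 TPM and MAPRE3, a microtubule end-binding protein, rising from 9.05 ± 0.753 to 20.6 ± 1.9 TPM. Kinesins and dyneins had 4 of 50 higher and 22 lower (9 and 16 after rescaling). KLC4, a kinesin light chain, rose from 53.4 ± 11.4 to 79.7 ± 6.27 TPM. Actin assembly factors had 8 of 49 higher and 21 lower (11 and 10 after rescaling). TMOD1, which caps the pointed ends of thin filaments, was at 988, 1249 and 1132 TPM at 1D and 147, 80.1 and 137 TPM at 14D (log2 fold change -3.24, SE 0.22, adjusted p = 4.6e-06). TMOD4, the tropomodulin of fast muscle, was at 66.8, 68.99 and 55.8 TPM at 1D and 477, 351 and 356 TPM at 14D (log2 fold change 2.60, SE 0.18, adjusted p = 4.54e-06). The order of these related genes was thus reversed, from TMOD1 above TMOD4 in all 1D libraries to TMOD4 above TMOD1 in all 14D libraries, on the length-scaled TPM. LMOD2, a leiomodin that lengthens thin filaments, fell from 119.6 ± 4.62 to 10.5 ± 6.65 TPM. For the actin list the higher count was 5 leaving out 1D replicate 2 or 1D replicate 3. PDZ and LIM domain proteins had 7 of 36 higher and 9 lower (13 and 5 after rescaling). PDLIM3 (ALP), a Z-disc protein that binds alpha-actinin, was at 46.1, 104 and 95.4 TPM at 1D and 361, 359.8 and 392 TPM at 14D (log2 fold change 2.25, SE 0.29, adjusted p = 0.000148). CSRP3 (MLP), a LIM protein of the Z-disc, fell from 35.5 ± 4.69 to 10.6 ± 8.66 TPM, and CSRP2 from 205 ± 36.8 to 46.98 ± 6.62 TPM. PDLIM3 had no overlap. Annexins, S100 proteins and galectins had 4 of 19 higher and 7 lower (6 and 6 after rescaling). LGALS1, a galectin that promotes myoblast fusion in mouse, was at 506, 534 and 391 TPM at 1D and 41.9, 78.3 and 38.03 TPM at 14D (log2 fold change -3.21, SE 0.28, adjusted p = 1.55e-05). All 14D libraries were lower. For that list the higher count was 2 leaving out 1D replicate 1, 1D replicate 2 or 1D replicate 3. TMEM genes, which share only a naming scheme, had 13 of 137 higher and 48 lower (27 and 35 after rescaling), and TMEM38B (TRIC-B), a cation channel of the sarcoplasmic reticulum, rose from 11.4 ± 2.18 to 30.5 ± 1.79 TPM.

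Each listed pair had a member labelled early or general and a member labelled late or muscle. The pairs were described by the log2 ratio of late to early. These labels come from the list and need not hold for each pair. CELF1 and MBNL1, for example, were paired as splicing regulators, and DNM1 was labelled late against DNM2. Both members of 20 of the 31 listed pairs were tested. The ratio was higher at 14D in 13 pairs, with no overlap of libraries in 8, and it was lower without overlap in 5. Of all tested single genes 61.9% had no overlap between the ages. The pairs were also chosen with earlier results of these data known, so the counts only describe them. In 4 pairs the early form fell and the late form rose. EEF1A1, the general elongation factor, was at 3653, 4838 and 4241 TPM at 1D and 1655, 1985 and 2304 TPM at 14D. EEF1A2, the form of muscle and neurons, was at 1070, 1141 and 889 TPM at 1D and 2391, 2120 and 3039 TPM at 14D. The late form lay below the early one in every 1D library and above it in every 14D library, and the ratio changed by 2.38. ADSS2 fell from 77.8 ± 2.96 to 34.04 ± 6.16 TPM while ADSS1 rose as given above (ratio change 3.80). ATP2B1, a plasma membrane calcium pump, fell from 25.6 ± 1.32 to 17.4 ± 1.64 TPM while ATP2B4 rose from 29.1 ± 3.58 to 42.1 ± 5.44 TPM (ratio change 1.05). The call of ATP2B1 was lost at adjusted p 0.263 after rescaling and 0.316 after quantile normalization, and that of ATP2B4 at 0.0599 leaving out 14D replicate 1, 0.111 leaving out 14D replicate 2, 0.0507 leaving out 1D replicate 1, 0.0695 leaving out 1D replicate 2 and 0.132 leaving out 1D replicate 3. RPL3 and RPL3L were the fourth such pair. Pairs that went the other way included utrophin and dystrophin, both of which fell, DMD from 46.1 ± 2.31 to 21.1 ± 2.28 TPM and UTRN from 22.7 ± 2.3 to 15.5 ± 2.75 TPM (ratio change -0.57), though the call of UTRN was lost at adjusted p 0.353 after rescaling, 0.398 after quantile normalization, 0.115 leaving out 14D replicate 3, 0.101 leaving out 1D replicate 1 and 0.0686 leaving out 1D replicate 2. TEAD1 fell from 105 ± 12.1 to 47.8 ± 6.6 TPM and TEAD4 rose from 275 ± 52.8 to 419.7 ± 18.6 TPM, which are transcription factors that bind YAP1 (ratio change -1.75). LAMA2, the laminin chain of the muscle basement membrane, fell from 78.6 ± 18.8 to 40.6 ± 10.1 TPM, while LAMA4 was at 66.3 ± 13.2 and 70.9 ± 18.2 TPM and was called higher after rescaling (adjusted p = 0.0408). CAV1 rose as deposited from 104 ± 21.1 to 206 ± 85.7 TPM against the fall of CAV3 (ratio change -2.82), though its own rise was lost in another fit (adjusted p 0.0578 leaving out 1D replicate 3). DNM2, the dynamin found mutated in human centronuclear myopathy, rose from 22.6 ± 2.52 to 34.5 ± 4.81 TPM, and DNM1 fell from 22.5 ± 2.74 to 12.7 ± 6.22 TPM, a call lost at adjusted p 0.0783 after rescaling, 0.0953 after quantile normalization, 0.069 leaving out 14D replicate 1, 0.0641 leaving out 14D replicate 3, 0.0648 leaving out 1D replicate 1 and 0.0573 leaving out 1D replicate 2. Junctophilins and calsequestrins did not pass the test as deposited, with log2 changes of 0.14 for JPH2, 0.14 for JPH1, 0.46 for CASQ2 and 0.50 for CASQ1. After rescaling JPH2, CASQ2 and CASQ1 were called higher (adjusted p = 0.0347, 0.0113 and 0.0312, respectively).

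Among the 40 largest rises without overlap between the ages were further genes in none of the families. METTL21C, a protein lysine methyltransferase of mammalian muscle, was at 25.7, 26.6 and 20.04 TPM at 1D and 462, 426 and 1128 TPM at 14D (log2 fold change 4.61, SE 0.43, adjusted p = 2.12e-05). KY, a muscle protein named for the kyphoscoliosis mouse, was at 5.99, 7.94 and 7.26 TPM at 1D and 158, 138 and 184 TPM at 14D (log2 fold change 4.32, SE 0.31, adjusted p = 5.69e-06). In both, the lowest 14D library was many times the highest 1D library, though only genes without overlap were ranked. ETNPPL, which breaks down phosphoethanolamine, rose from 12.03 ± 9.28 to 133 ± 82.7 TPM, RETREG1, a receptor for autophagy of the ER, from 19.8 ± 7.02 to 179 ± 114 TPM, and SYNM (synemin), an intermediate filament protein, from 4.25 ± 0.926 to 36.2 ± 7.69 TPM. ASPN (asporin), a small proteoglycan, rose from 23.4 ± 5.5 to 200.3 ± 123 TPM against the fall of most fibroblast markers. FGL2, a secreted protein of macrophages and T cells, rose from 4.94 ± 1.05 to 41.8 ± 4.93 TPM.

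The 40 largest falls without overlap held several secreted factors. STC2, a glycoprotein hormone that inhibits the IGF-releasing protease PAPPA, was at 94.6, 134 and 176 TPM at 1D and 3.06, 2.42 and 1.82 TPM at 14D (log2 fold change -5.28, SE 0.24, adjusted p = 3.5e-07). OSTN (osteocrin or musclin), a muscle peptide that protects natriuretic peptides from clearance, was at 18.8, 19.1 and 12.7 TPM at 1D and 0.0693, 0.069 and 0 TPM at 14D (log2 fold change -4.07, SE 0.18, adjusted p = 3.73e-07). PNOC, the precursor of the neuropeptide nociceptin, was at 34.7, 49.8 and 36.04 TPM at 1D and 0.288, 0.141 and 0.786 TPM at 14D (log2 fold change -4.88, SE 0.21, adjusted p = 3.42e-07). The ranking took only genes without overlap, so the separation of the ages in these 3 genes was set by the choice. ADPRHL1, a relative of ADP-ribosylhydrolases needed for heart formation in frogs, was at 452, 591 and 480.01 TPM at 1D and 23.01, 11.2 and 5.44 TPM at 14D (log2 fold change -5.35, SE 0.51, adjusted p = 2.38e-05). Its libraries were separate by the same choice. NAT8L, which makes N-acetylaspartate, fell from 31.8 ± 8.62 to 1.96 ± 1.91 TPM, GAL3ST1, which makes the myelin lipid sulfatide, from 25.5 ± 4.09 to 2.36 ± 2.37 TPM, and CLGN (calmegin), an ER chaperone of mammalian testis, from 11.8 ± 7.26 to 0.279 ± 0.129 TPM.

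Of 8685 tested transcripts of the lncRNA table, 443 (5.1%) were higher at 14D and 1545 (17.8%) were lower, on log2(TPM + 0.1). After rescaling 676 were higher and 1070 lower, with a median change of -0.45 before and -0.17 after. Transcripts without a gene ID, whose names begin with G and a number and which no source used here annotates, summed to 104867 to 114913 TPM at 1D and 167711 to 218322 TPM at 14D, and all other classes were far smaller. Most of that gain lay in 4 transcripts. G22941 was at 4417, 3625 and 6529 TPM at 1D and 34631, 22569 and 36957 TPM at 14D (log2 fold change 2.70, SE 0.27, adjusted p = 0.000503), and G22860 was at 4285, 3143 and 4156 TPM at 1D and 24239, 14673 and 29590 TPM at 14D (log2 fold change 2.52, SE 0.28, adjusted p = 0.000822). Their libraries did not overlap between the ages. G22683, the most abundant of all, rose from 35379 ± 1943 to 62354 ± 8313 TPM (log2 change 0.81), a call that was lost in other fits (adjusted p 1 after quantile normalization, 0.0516 leaving out 14D replicate 3, 0.0631 leaving out 1D replicate 1, 0.0715 leaving out 1D replicate 2 and 0.0501 leaving out 1D replicate 3), and G22763 rose from 7657 ± 1557 to 20077 ± 4916 TPM as deposited but had a log2 change of -0.23 after quantile normalization. PTMA (prothymosin alpha), a chromatin-linked acidic protein whose gene the reference calls protein-coding, fell here from 6688 ± 511 to 2966 ± 758 TPM (log2 fold change -1.20, SE 0.21, adjusted p = 0.00522). TMIGD2, likewise protein-coding there and known from lymphocytes, was at 1.98, 0 and 0 TPM at 1D and 24.8, 27.6 and 16.4 TPM at 14D. RASAL3, another such gene, was at 0, 0 and 0 TPM at 1D and 5.87, 5.92 and 4.32 TPM at 14D. Both were listed at 0 in 2 or more of the 1D libraries, and no fold is given. Among the 12 named falls, the unannotated G12380 was at 19.5, 24.8 and 21.2 TPM at 1D and 0.0709, 0.425 and 0.287 TPM at 14D (log2 fold change -6.06, SE 0.45, adjusted p = 0.000232), and LOC102097898, a lncRNA next to the surfactant gene SFTPD in the reference, was at 21.8, 59.2 and 18.7 TPM at 1D and 0.0307, 0.091 and 0.146 TPM at 14D (log2 fold change -7.31, SE 0.51, adjusted p = 0.000208). Both were far lower in every 14D library, but the named falls were chosen among transcripts without overlap. LOC110354925, a lncRNA that overlaps PHKA2 and ADGRG2 in the reference, was at 14.02, 54.6 and 45.4 TPM at 1D and 0, 0 and 0 TPM at 14D, listed at 0 at 14D, so that no fold is given. Whether reads of the overlapping genes entered its level was not tested.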

How the data were processed

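Muscle was snap-frozen, its RNA taken up with Trizol and Illumina libraries sequenced, per the labels. STAR 2.6.0c and Cufflinks 2.1.1 are named in the submitters' processing notes, but the role of each, the genome build, the annotation and strandedness are not given in the sources used here. TPM was deposited by the authors in a table of 12918 mRNA genes and a table of 9158 lncRNA transcripts, and this TPM was used as deposited. There were 3 value columns per table that matched no label and were not used. TPM holds no read counts, so depth and counting error are unknown.

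Symbols were taken from RefSeq's gene table, which matched 12256 of 12918 mRNA identifiers (10941 with a symbol that is no placeholder) and 1604 of 5492 lncRNA-table gene IDs. It was not named by the authors. Sequences were not used here. Overlapping and antisense genes could not be separated, since strand handling is not stated, and near-identical copies may share reads.

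A linear model of stage means was fitted to log2(TPM + 1) of the mRNA genes that reached 1 TPM in 3 or more of 9 libraries, and to log2(TPM + 0.1) of the lncRNA transcripts that reached 0.1 TPM in 3 or more. The two-sided test was limma's moderated one with an intensity trend (limma 3.58.1, R 4.3.3). The 28D libraries entered this filter, the estimate of spread and both alternative scalings, but not the difference between the ages. Genes were called at a Benjamini-Hochberg adjusted p below 0.05 over all features of a table. Summaries used Python 3.11.15, pandas 2.3.3 and numpy 2.4.6. No libraries were identical. The test was also run on simulated data with independent noise, few planted rises and no shift in scale. That run cannot check the effect of scaling on the calls made here.

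Members and lists were chosen with earlier results of these data known, so lists are described by counts and medians, with no test of a list. Named genes were, for each list, up to 4 called members a direction with the largest log2 change and at least 5 TPM in the higher stage (2 with the highest mean where none was called), every tested pair, the 40 largest rises and 40 largest falls of genes with no overlap between stages, and, of lncRNA transcripts, 12 rises, 12 falls and the 5 most abundant. Alternatives were another pseudocount, other filters, median-ratio and quantile scaling, the 6 libraries alone, a replicate block and leaving out each library. The fit of 6 libraries with a block was added after seeing the data. Of the families, 1 and a few members of others were counted but are not reported here.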

Additional observations from a re-analysis of the deposited data

How the results depend on the processing

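Scaling moved the split of higher and lower calls. Of mRNA genes 2925 were higher and 3101 lower after median-ratio rescaling and 2964 higher after quantile normalization, against 1623 and 4688 as deposited. Of lncRNA transcripts 676 were higher after median-ratio rescaling, and 865 were higher and 858 lower after quantile normalization, against 443 and 1545. With a floor of 1 TPM 984 lncRNA transcripts were lower, among fewer transcripts tested. Leaving out each library in turn gave 5395 to 6179 called mRNA genes (1229 to 1514 higher and 3973 to 4845 lower) and 1347 to 1664 called lncRNA transcripts (284 to 343 higher, lowest without 1D replicate 3, and 1036 to 1338 lower). Libraries with the same replicate number were no more alike than others (correlation of same-numbered deviations -0.072, 0.00015 and -0.029). For different numbers it was -0.041 to 0.061. With so few libraries this cannot exclude a pairing, and the labels do not state one. With the replicate number as a block 6047 mRNA genes and 1639 lncRNA transcripts were called, and with the 6 libraries alone and a block 1162 lncRNA transcripts were called, 266 higher and 896 lower. The causes of these shifts, other than fewer transcripts or libraries, were not tested.

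Of 629 named results, 601 kept their call after median-ratio rescaling, 23 lost it and 5 gained it. Quantile normalization turned the direction of ACTA1 (-0.28), MYL1 (-0.058) and G22763 (-0.23). Without 1 library 34 to 59 named results lost their call, the most without 1D replicate 3.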
